A study of Mus musculus with 15 samples.

Results

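Mutant Thpok-RKF- CD8 single-positive (SP) thymocytes were set against wild-type (WT) CD8 SP thymocytes, a comparison of 6 RNA-seq libraries out of 15. The libraries were taken by their labels, 3 of the mutant population and 3 of the WT one. The mutant cells were CD45.2+ and of the genotype Thpok fl/fl, Runx3 fl/dYFP, Cd4-Cre+ and Thpok-RKF-, taken from B2m-/- host mice. The WT CD8 SP cells were CD45.1+CD45.2+ competitors taken from I-Ab-/- host mice. WT CD4 SP cells, CD45.1+CD45.2+ competitors taken from B2m-/- host mice, are given beside them as levels from the helper lineage (3 libraries). All were C57BL/6 mature thymocytes from irradiated hosts given mixed bone marrow, sorted as CD44lo, TCRbhi, CD24lo and CD69lo. The CD8 SP gates were CD4-CD8+ and the CD4 SP gate was CD4+CD8-. The labels do not explain the name Thpok-RKF, for which the mutant cells are labelled negative. Genotype, host and CD45 alleles differed together between the compared groups, so their effects cannot be told apart. Nothing in the labels ties the replicates to separate animals. The p-values therefore cover the spread among these libraries alone, and that spread may be technical.

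Thpok, encoded by Zbtb7b, and Runx3 are transcription factors that thymocytes use to choose between the helper (CD4) and cytotoxic (CD8) lineages. Thpok is normally made by cells selected on MHC class II and Runx3 by cells selected on MHC class I, and each represses genes of the other lineage. B2m is needed for MHC class I at the cell surface and I-Ab is a chain of MHC class II, so B2m-/- hosts select on class II and I-Ab-/- hosts on class I. Cd4-Cre removes floxed sequence in developing T cells from the double-positive stage on. The comparison asks how cells of the same surface phenotype differ across all expressed genes when both lineage factors were targeted and the cells matured in a different host.

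The 6 libraries held 37311823 to 44984709 reads counted in genes, and 16550 of the 53762 genes listed had enough counts to be tested. Levels below are CPM, the reads of a gene relative to those of its library, scaled between libraries by the TMM method. RNA for the labelled cell type was high in every library: Cd3e, a chain of the T cell receptor complex, lay between 725 and 841 CPM, and Cd8a and Cd8b1, the chains of CD8, at 1171 CPM or more. Among the genes for the markers that the gate held low, Cd24a lay at 3.82 CPM or less in all 6 and Cd44 between 9.49 and 15.01 CPM. Cd69 RNA was higher, at 69.2 to 103 CPM in mutant and 146 to 202 CPM in WT CD8 SP libraries. Its groups did not overlap. Libraries numbered 1 stood apart from the others: 1543 genes were called for number 1 in a model with the groups. Jun, an immediate early gene, stood at 104.9, 4.54 and 3.54 CPM in mutant and 11.3, 7.70 and 8.91 CPM in WT CD8 SP cells. With all 5 libraries numbered 1 left out, 2546 of the 3045 genes called below (83.6%) were called in the same direction.

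A gene was called changed at an adjusted p of 0.05 by edgeR's quasi-likelihood F test, adjusted by the Benjamini-Hochberg method over all genes tested. Of the 16550 genes, 3045 (18.4%) were called: 1287 (7.78%) were higher and 1758 (10.6%) lower in the mutant cells. These shares are the background for every count of list members below. Called genes with at least a 2-fold change numbered 1441 (8.71%), of which 622 were higher (3.76%) and 819 lower (4.95%). At 16-fold or more the numbers were 108 and 172. For 6555 genes (39.6%) the values of the 3 mutant and 3 WT CD8 SP libraries did not overlap. The median coefficient of variation between replicates was 10.4% in mutant and 10.8% in WT CD8 SP cells, over genes whose log2 CPM averaged 3 or more. The share called was 5.03% of genes with a mean log2 CPM below 0 and 34.4% of those in the most abundant class. Among the 100 most abundant genes, 15 were higher and 31 lower. Protein-coding genes were called more often (22.8% of 12019) than long noncoding RNAs (9.53% of 1007), of which 60 were higher and 36 lower.

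**Figure D1:**
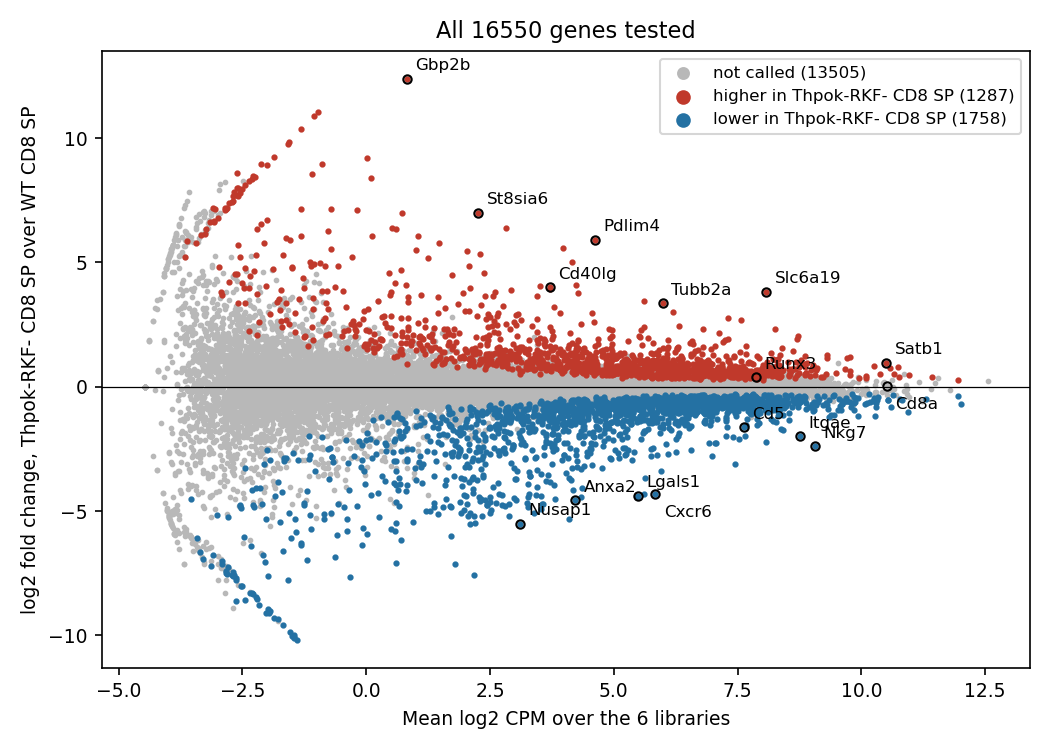
Each point is 1 of the 16550 genes tested, with its mean log2 CPM over the 6 libraries on the x axis and its log2 fold change, Thpok-RKF- CD8 SP over WT CD8 SP, on the y axis. The 1287 called genes that were higher are red, the 1758 that were lower are blue and the rest are grey; Cd8a and Runx3 lie near 0 and were not called, while Lgals1, Anxa2 and Cxcr6 lie at -4.38, -4.57 and -4.31 and Pdlim4 at 5.92.

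Zbtb7b, the targeted gene that encodes Thpok, stood at 2.11, 2.51 and 1.92 CPM in mutant cells and at 0.239, 0.376 and 0.0933 CPM in WT CD8 SP cells. Every mutant library was above every WT CD8 SP library (log2 fold change 3.21 ± 0.50 SE, edgeR adjusted p = 0.000347). All 3 were also below the lowest WT CD4 SP library, where the gene stood at 63.97, 79.2 and 27.4 CPM. Runx3, the other targeted gene, stood at 306, 247 and 247 CPM in mutant and 220.2, 202 and 194 CPM in WT CD8 SP cells and did not pass the test (log2 fold change 0.38 ± 0.14, edgeR adjusted p = 0.0892), although its libraries did not overlap. Over the alternative fits listed below, the log2 fold change of Runx3 lay between 0.23 and 0.44, and Runx3 passed as higher in at least 1 of them. The table gives 1 count per gene and none per exon, so the removal of floxed sequence was not checked.

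Cd8a and Cd8b1 overlapped between the groups, with log2 fold changes of 0.02 ± 0.31 and -0.09 ± 0.18, and neither passed the test. Cd4, the coreceptor that the gate left out, was counted at 41.5, 19.9 and 17.4 CPM in mutant cells and 3.86, 0.803 and 0.979 CPM in WT CD8 SP cells. It was higher in each mutant library (log2 fold change 3.82 ± 0.49, edgeR adjusted p = 6.13e-05), and 4.88 without WT CD8 SP replicate 1, the WT library that held the most. The WT CD4 SP libraries held 874, 969.6 and 822 CPM, so the mutant libraries lay far below them.

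Helper genes were higher in mutant CD8 SP cells more often than lower: of 12 listed members, 7 were higher and 1 was lower, with a median log2 fold change of 0.61 against 2.5e-05 over all genes tested. Cd40lg, the ligand that helper T cells use to activate B cells, had 43.9, 57.4 and 60.3 CPM in mutant and 2.10, 3.24 and 4.69 CPM in WT CD8 SP cells. The groups did not overlap (log2 fold change 4.004 ± 0.30, edgeR adjusted p = 5.56e-07), and the WT CD4 SP libraries were higher still at 106, 125 and 125 CPM. Gata3, a transcription factor of CD4 cell development, had 72.9, 74.4 and 69.5 CPM in mutant and 38.3, 41.5 and 39.2 CPM in WT CD8 SP cells. It was 1.82-fold higher (log2 fold change 0.86 ± 0.16, edgeR adjusted p = 0.00143). Tnfrsf4, the costimulatory receptor OX40, had 16.9, 9.03 and 7.27 CPM in mutant and 3.38, 2.71 and 2.24 CPM in WT CD8 SP cells (log2 fold change 2.00 ± 0.35). WT CD4 SP cells had 247, 188 and 269 CPM of Tnfrsf4, above every library of both CD8 SP groups. The lower member was Icos, a costimulatory receptor of the CD28 family, with 84.5, 84.4 and 83.0 CPM in mutant and 129, 121 and 129 CPM in WT CD8 SP cells (log2 fold change -0.59 ± 0.13).

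Cytotoxic genes went the other way: of 25 listed members, 23 were tested, 13 were lower and 2 higher, with a median log2 fold change of -2.22. Gzmk and Ifng had too few counts to be tested. Nkg7, a cytotoxic granule membrane protein, had 236, 226 and 245 CPM in mutant and 1065, 1327 and 1295 CPM in WT CD8 SP cells. No library of one group reached the other (log2 fold change -2.38 ± 0.34, edgeR adjusted p = 0.000153), and WT CD4 SP cells had 1.26, 2.09 and 5.47 CPM. Itgae, the CD103 integrin chain that binds E-cadherin, had 209.7, 225 and 221 CPM in mutant and 888, 867 and 850 CPM in WT CD8 SP cells. It was 3.97-fold lower in the mutant cells (edgeR adjusted p = 1.05e-06) and stood at 6.24, 10.3 and 8.76 CPM in WT CD4 SP cells, so all 3 mutant libraries lay between the WT populations.

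Klrd1, the CD94 receptor chain, fell to 4.85, 5.97 and 3.52 CPM in mutant cells, against 56.7, 70.3 and 68.0 CPM in WT CD8 SP cells (log2 fold change -3.76 ± 0.56). Cst7, an inhibitor of granule cathepsins, had 16.8, 18.0 and 16.1 CPM against 112, 101 and 102 CPM (log2 fold change -2.63 ± 0.15, edgeR adjusted p = 4.92e-08). Neither gene overlapped between the groups. Dapl1 and Ly6c2, a surface marker of CD8 memory cells, fell by 3.57 and 3.25 on the log2 scale. Ly6c1 and Ly6c2 are near-identical neighbours, so reads may have been split between them; Ly6c1 moved the other way, at 58.7, 74.5 and 73.0 CPM in mutant and 0.266, 1.15 and 1.03 CPM in WT CD8 SP cells (log2 fold change 6.38 ± 0.40).

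Eomes, a T-box factor of memory CD8 cells, had 0.831, 0.303 and 0.803 CPM in mutant and 11.1, 15.6 and 17.4 CPM in WT CD8 SP cells (log2 fold change -4.51 ± 0.66, edgeR adjusted p = 0.000204). Plac8, a small cysteine-rich protein, stood at 0.0898, 0.173 and 0.847 CPM in mutant and 52.4, 78.8 and 78.3 CPM in WT CD8 SP cells. Its log2 fold change was -7.55 ± 0.82, and -9.01 without mutant replicate 3, the mutant library that held the most. Xcl1, a chemokine that draws dendritic cells, had 0 counts in the 3 mutant libraries and 186 in the WT CD8 SP libraries, at least 68.7-fold lower with a floor of 3 counts over the group. Il2rb, the chain shared by the IL-2 and IL-15 receptors, fell by 1.70 and Ctsw, a granule protease, by 1.15 on the log2 scale. Prf1, the pore-forming perforin, was the exception with a high level: it had 297, 327 and 344 CPM in mutant and 113, 134 and 140.5 CPM in WT CD8 SP cells, 2.499-fold higher (edgeR adjusted p = 2.26e-05). Fasl, the ligand of the death receptor Fas, was the other member called higher, at 0.988, 0.389 and 0.401 CPM in mutant and 0.0798, 0.0502 and 0 CPM in WT CD8 SP cells. Fasl lost its call without mutant replicate 1 and without each WT CD8 SP replicate, which left 1 higher member.

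**Figure D2:**
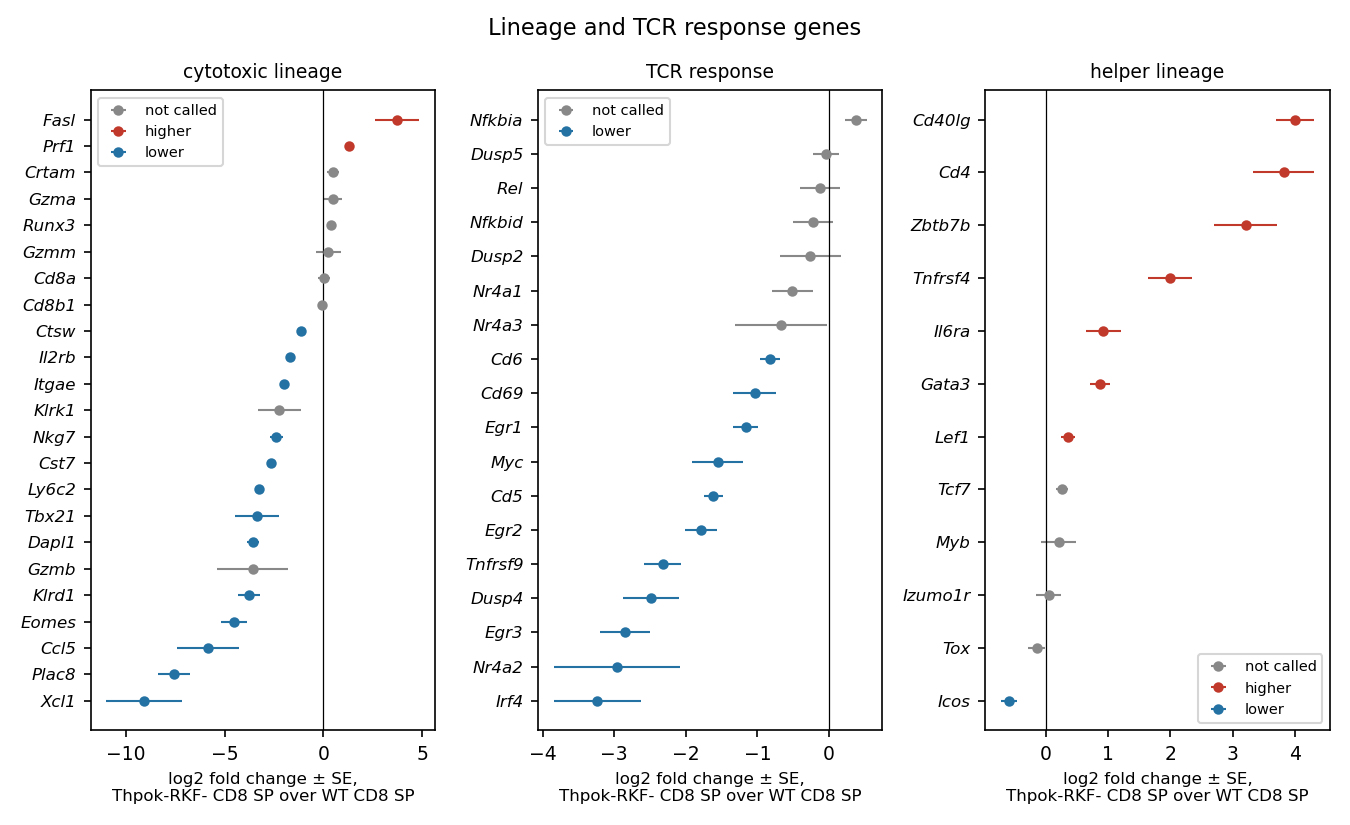
Points give the log2 fold change, Thpok-RKF- CD8 SP over WT CD8 SP, of each tested member of the cytotoxic, TCR response and helper lists, with bars for the SE; red is called higher, blue called lower and grey not called. In the cytotoxic list 13 of 23 members are blue, in the TCR response list 11 of 18, and in the helper list 7 of 12 are red.

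Lgals1, Tubb2a and St8sia6, taken as marker genes with earlier results of these data known, all passed the test with no overlap. Lgals1, which encodes the sugar-binding protein galectin-1, had 11.5, 7.91 and 10.3 CPM in mutant and 218, 207 and 196 CPM in WT CD8 SP cells. It was 20.9-fold lower (log2 fold change -4.38 ± 0.19, edgeR adjusted p = 3.58e-09), and WT CD4 SP cells lay between at 50.0, 61.5 and 77.9 CPM. Tubb2a, a beta-tubulin, had 207, 196 and 206 CPM in mutant and 17.7, 19.3 and 22.7 CPM in WT CD8 SP cells. It was 10.2-fold higher (log2 fold change 3.35 ± 0.13, edgeR adjusted p = 2.71e-09), above WT CD4 SP cells at 49.7, 56.0 and 47.0 CPM. Tubb2b is a close copy, so the split of reads between these paralogs is uncertain. Tubb2b had 9.93, 12.2 and 10.2 CPM in mutant and 4.41, 3.01 and 4.76 CPM in WT CD8 SP cells. St8sia6, a sialyltransferase, had 98.2, 49.8 and 54.1 CPM in mutant and 0.718, 0.853 and 0.0233 CPM in WT CD8 SP cells (log2 fold change 7.01 ± 0.51). WT CD4 SP cells had 177, 199 and 177 CPM of it, more than any mutant library.

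The 15 largest rises were taken among called genes whose log2 CPM averaged 3 or more and whose groups did not overlap, without receptor segments and predicted models. They ran from 2.95 to 5.92 on the log2 scale. Pdlim4, a PDZ and LIM domain protein of the actin cytoskeleton, led them with 235, 177 and 178 CPM in mutant and 4.84, 2.01 and 2.89 CPM in WT CD8 SP cells (log2 fold change 5.92 ± 0.29, edgeR adjusted p = 1.76e-08). Tdrd5, a tudor domain protein known from germ cells, had 106, 119 and 112 CPM in mutant and 3.56, 1.25 and 2.31 CPM in WT CD8 SP cells. Pcsk1, a protease that matures prohormones, had 84.5, 122 and 119 CPM in mutant and 1.33, 3.51 and 5.15 CPM in WT CD8 SP cells. Tdrd5 and Pcsk1 were also low in WT CD4 SP cells, at most 3.18 and 10.5 CPM, whereas Pdlim4 stood there at 65.3, 42.8 and 53.9 CPM.

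Slc6a19, a neutral amino acid transporter, was the most abundant of these genes, with 981, 1094 and 984 CPM in mutant and 78.5, 69.0 and 68.8 CPM in WT CD8 SP cells. It was 14.1-fold higher (log2 fold change 3.82 ± 0.32, edgeR adjusted p = 1.39e-06) and was counted at no more than 0.414 CPM in the WT CD4 SP libraries. Dntt, which encodes the terminal transferase that adds bases at antigen receptor joints, had 107, 187 and 197 CPM in mutant and 12.2, 15.2 and 18.0 CPM in WT CD8 SP cells (log2 fold change 3.43 ± 0.30). WT CD4 SP cells stood at 20.1, 20.3 and 12.99 CPM, overlapping WT CD8 SP cells. Pim1, a cytokine-induced kinase, and Il18r1, a chain of the IL-18 receptor, were higher by 4.05 ± 0.28 and 3.93 ± 0.34. Cd81, a tetraspanin, had 199, 213 and 220 CPM in mutant and 17.5, 27.1 and 34.6 CPM in WT CD8 SP cells (log2 fold change 2.99 ± 0.26). Igsf23, of the immunoglobulin superfamily, Adamts14, a procollagen protease, Atp9a, of the phospholipid flippase family, and Cacng4, a calcium channel gamma subunit, rose by 4.09, 3.76, 2.99 and 2.95 on the log2 scale. Hdac1-ps rose by 3.64; it is a pseudogene of Hdac1, and reads may have been shared with the parent gene.

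**Figure D3:**
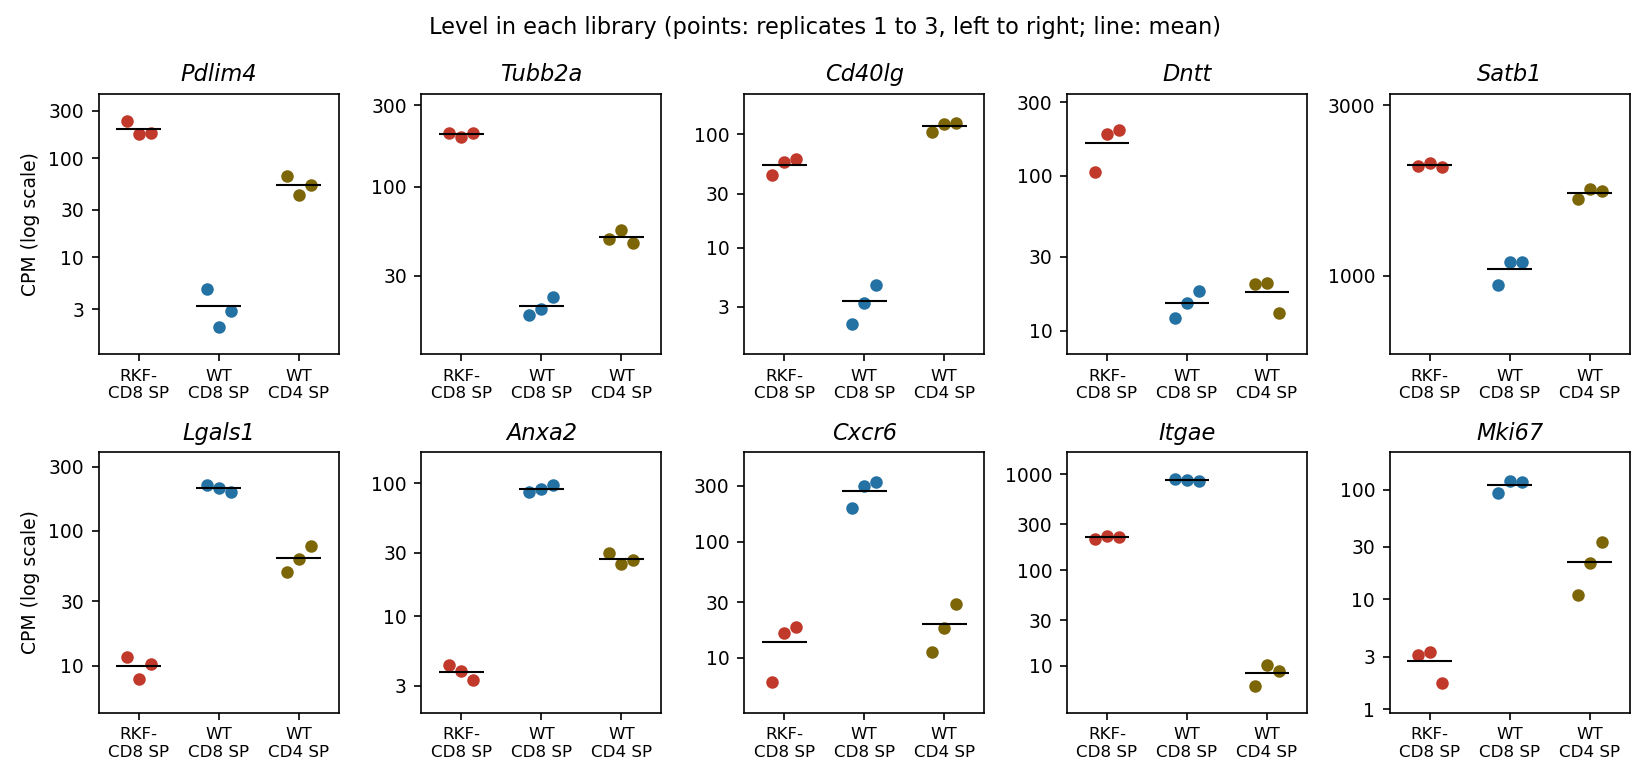
Each panel gives 1 gene's CPM on a log axis in the 3 Thpok-RKF- CD8 SP (red), 3 WT CD8 SP (blue) and 3 WT CD4 SP (brown) libraries, with a line at the mean. In all 10 panels the mutant and WT CD8 SP libraries are apart, for Lgals1, Anxa2 and Mki67 every mutant library lies below both WT populations, and for Cd40lg and Itgae it lies between them.

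Nusap1, Mki67, Ccna2, Pclaf, Fignl1, Ccnb2, Tpx2, Ube2c, Birc5, Kif11, Ncapg2, Rrm2 and Dtl, 13 of the 15 largest falls, are genes of cell division or DNA replication and repair, and they fell by 4.39 to 5.51 on the log2 scale. The other 2 were Lcn4 and Anxa2. Lcn4, a lipocalin, had 2.11, 2.18 and 1.34 CPM in mutant and 51.7, 49.9 and 42.3 CPM in WT CD8 SP cells (log2 fold change -4.67 ± 0.35). Anxa2, a calcium-dependent membrane-binding annexin, had 4.29, 3.87 and 3.34 CPM in mutant and 86.3, 89.6 and 96.6 CPM in WT CD8 SP cells. It was 23.7-fold lower (log2 fold change -4.57 ± 0.22, edgeR adjusted p = 1.51e-08), and WT CD4 SP cells had 29.7, 24.7 and 26.7 CPM.

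Galectin, annexin, S100 and other effector-memory genes were mostly lower: of 22 members tested of 23 listed, 12 were lower and 2 higher, with a median log2 fold change of -0.72. Beside Lgals1 and Anxa2, Vim, an intermediate filament protein, had 190, 191 and 191 CPM in mutant and 475, 521 and 511 CPM in WT CD8 SP cells (log2 fold change -1.40 ± 0.10, edgeR adjusted p = 3.66e-07). Crip1, a LIM protein of effector and memory cells, had 95.1, 69.5 and 69.3 CPM against 327, 308 and 277 CPM (log2 fold change -1.96 ± 0.16). Vim and Crip1 did not overlap between the groups. Ahnak, a giant scaffold protein, fell to 11.3, 7.50 and 7.98 CPM in mutant cells, against 108, 79.0 and 68.4 CPM in WT CD8 SP cells. The 2 higher members were Il18r1, described above, and Anxa5, an annexin with 182, 224 and 238 CPM in mutant and 125, 147 and 149 CPM in WT CD8 SP cells. Anxa5 lost its call without mutant replicate 2 or 3 and without WT CD8 SP replicate 1 or 2, which left 1 higher member.

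All 20 mitosis genes tested and all 24 genes of DNA replication and S phase were lower in mutant CD8 SP cells, with median log2 fold changes of -4.63 and -2.00. The mitosis genes summed to 69.9, 62.1 and 70.0 CPM in mutant libraries and to 862, 1431 and 1513 CPM in WT CD8 SP libraries. In WT CD4 SP libraries they summed to 200, 315 and 364 CPM, so every mutant library lay below every library of both WT populations. The replication genes summed to 1087, 1254 and 1305 CPM in mutant libraries and to 2974, 4213 and 4406 CPM in WT CD8 SP libraries. Here the WT CD4 SP libraries, at 1253, 1380 and 1520 CPM, overlapped the mutant libraries. In bulk samples fewer cells of a type and less RNA per cell cannot be told apart, so these sums do not say whether fewer cells were dividing. Both sums were lowest in replicate 1 among the WT CD8 SP libraries.

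Mki67, which encodes the proliferation antigen Ki-67, had 3.12, 3.33 and 1.72 CPM in mutant and 92.6, 119 and 118 CPM in WT CD8 SP cells. It was 40.3-fold lower (log2 fold change -5.33 ± 0.39, edgeR adjusted p = 4.26e-07). Top2a, the topoisomerase that untangles chromosomes, had 11.5, 12.0 and 10.2 CPM in mutant and 150.1, 242 and 269 CPM in WT CD8 SP cells (log2 fold change -4.30 ± 0.29). Cdk1, the kinase that drives entry into mitosis, had 1.46, 2.20 and 1.52 CPM in mutant and 22.5, 47.6 and 44.6 CPM in WT CD8 SP cells (log2 fold change -4.47 ± 0.31). No mutant library reached a WT CD8 SP library for any of them. Nusap1, a spindle protein, had the largest fall among the more abundant genes (log2 fold change -5.51 ± 0.57), which was -6.58 without mutant replicate 1, the mutant library that held the most, and -6.81 without all libraries numbered 1. Ccna2 and Ccnb2, mitotic cyclins, fell by 5.06 and 4.71 on the log2 scale, Ccnb2 by 5.48 without the libraries numbered 1.

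Among the replication genes, Tk1, thymidine kinase, had 1.33, 0.994 and 1.34 CPM in mutant and 21.6, 32.5 and 40.1 CPM in WT CD8 SP cells (log2 fold change -4.68 ± 0.37). Rrm2, the regulated subunit of ribonucleotide reductase, had 9.77, 9.32 and 10.7 CPM in mutant and 116, 247 and 272 CPM in WT CD8 SP cells (log2 fold change -4.42 ± 0.30). The groups did not overlap for either gene. The subunits of the replicative helicase changed less: Mcm6 had 184, 191 and 193 CPM in mutant and 521, 664 and 707 CPM in WT CD8 SP cells (log2 fold change -1.74 ± 0.14, edgeR adjusted p = 8.15e-07). Mcm3, another subunit, and Pcna, the sliding clamp of replication, had log2 fold changes of -2.00 ± 0.17 and -1.43 ± 0.15. Pclaf, a partner of Pcna, Dtl, which directs the breakdown of replication factors, and Uhrf1, which maintains DNA methylation, fell by 4.94, 4.39 and 3.66 on the log2 scale.

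**Figure D4:**
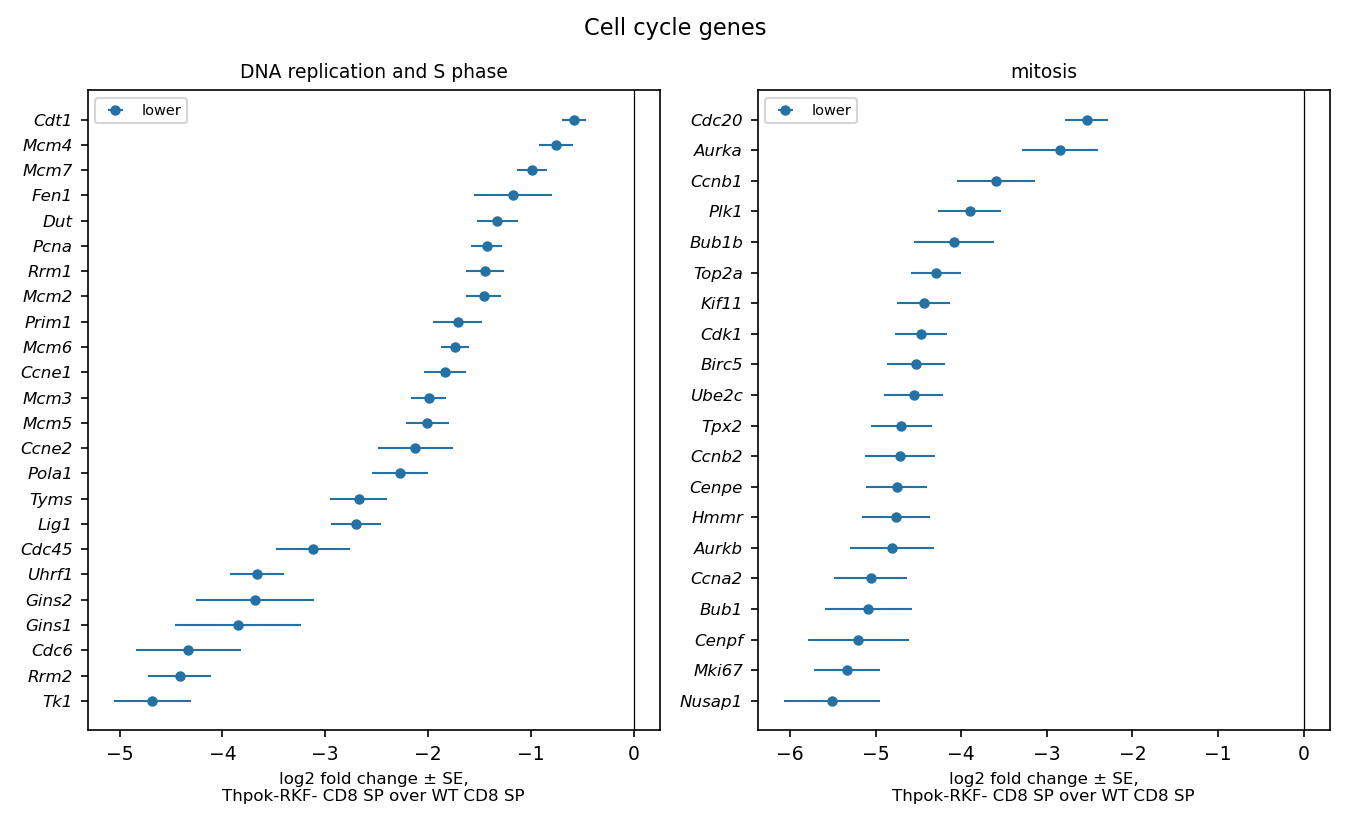
Points give the log2 fold change, Thpok-RKF- CD8 SP over WT CD8 SP, of the 24 replication and S phase genes (left) and the 20 mitosis genes (right), with bars for the SE. Every point is left of 0 and called; the mitosis genes lie between -5.51 and -2.54 and the replication genes between -4.68 and -0.58.

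Promoters of the replication and mitosis genes were read from a RefSeq table of the mouse build GRCm38.p6, which holds 250 bases before and 50 after each start. Searched were the E2F letters TTTGGCGC and TTTCCCGC and the letters TTTGAA of the cell cycle homology region (CHR), on both strands, both chosen after the values were seen. E2F letters stood in 7 of 25 promoters of the replication genes (28%, 20 of 24 genes matched to the table), against 1.56% of all 32851 promoters. CHR letters stood in 12 of 17 promoters of the mitosis genes (70.6%, 17 of 20 genes matched), against 17.9% of all promoters. The other way round, E2F letters stood in 0 of 17 mitosis promoters and CHR letters in 3 of 25 replication promoters (12%). Among the 13434 promoters matched to genes tested, E2F letters stood in 2.8% and CHR letters in 12.5%; 63.9% of the genes tested had a promoter in the table. Among promoters of all genes called lower, of which 77.3% had one, the shares were 5.52% and 16.9%. The matched 63.9% and 77.3% lie under the floor of 80% set for a check, so these shares are descriptions only. A match is a description of these letters and does not show binding. The lists and the letters were chosen with results of these data known, so the shares describe the lists alone. Why these genes fell was not tested. The 250 bases before the start are printed for 3 of these genes, picked because they hold 2 matches each, 5′ to 3′ on the gene's strand with the matches in capitals. Mcm6 lies on the minus strand of chromosome 1, at chr1:128359706-128359955, with E2F letters 110 and 47 bases before the start. Mki67 lies on the minus strand at chr7:135716380-135716629, with CHR letters 116 and 98 bases before the start. Cdk1 lies on the minus strand at chr10:69352913-69353162, with CHR letters 71 and 15 bases before the start. The matches in a promoter do not overlap.
Mcm6: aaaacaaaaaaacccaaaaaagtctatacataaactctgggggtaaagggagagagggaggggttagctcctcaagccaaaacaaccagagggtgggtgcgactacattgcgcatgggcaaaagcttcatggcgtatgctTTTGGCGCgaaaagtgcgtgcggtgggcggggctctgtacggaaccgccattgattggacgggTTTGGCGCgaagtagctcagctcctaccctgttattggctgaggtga
Mki67: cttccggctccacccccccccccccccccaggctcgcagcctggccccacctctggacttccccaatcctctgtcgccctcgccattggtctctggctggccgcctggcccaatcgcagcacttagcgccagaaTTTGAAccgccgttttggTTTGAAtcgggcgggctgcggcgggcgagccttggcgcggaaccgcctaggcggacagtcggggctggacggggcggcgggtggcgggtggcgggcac
Cdk1: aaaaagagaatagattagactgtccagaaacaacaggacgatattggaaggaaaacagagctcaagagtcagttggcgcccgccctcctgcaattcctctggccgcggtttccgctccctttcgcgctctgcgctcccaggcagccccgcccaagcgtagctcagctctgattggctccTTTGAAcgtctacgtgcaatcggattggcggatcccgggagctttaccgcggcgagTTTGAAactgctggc

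Runx proteins bind the letters TGTGGT, or ACCACA on the other strand, which stood in 16.8% of all promoters of the table and in 13.3% of those matched to genes tested. Among promoters of genes called higher, of which 71.6% had one, the share was 11.7%. For genes called lower, of which 77.3% had one, it was 14.1%, so both lay near the share for genes tested. The Runx letters stood in 12 of 20 promoters (60%) of the 16 cytotoxic genes with a promoter in the table. These are 69.6% of the 23 tested, too few for a check of the list, which is void. The promoter of Nkg7, on the plus strand at chr7:43436888-43437137, is shown because Nkg7 was among the most abundant cytotoxic genes that were lower. It holds ACCACA once, 83 bases before the start, in capitals.
Nkg7: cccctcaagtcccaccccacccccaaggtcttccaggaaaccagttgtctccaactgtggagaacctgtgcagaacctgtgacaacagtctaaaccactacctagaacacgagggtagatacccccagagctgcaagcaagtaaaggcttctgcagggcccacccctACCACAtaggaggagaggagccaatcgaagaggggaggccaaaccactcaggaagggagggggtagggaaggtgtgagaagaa

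Transcription factors of thymocytes changed in both directions: of 29 tested, 9 were higher and 5 lower, with a median log2 fold change of 0.20. Satb1, which organises chromatin in thymocytes, had 2025, 2074 and 2015 CPM in mutant and 940.4, 1091 and 1094 CPM in WT CD8 SP cells. The groups did not overlap (log2 fold change 0.97 ± 0.08, edgeR adjusted p = 9.2e-07), and WT CD4 SP cells had 1641, 1749 and 1728 CPM. Runx1, the Runx factor of immature and CD4 cells, had 60.1, 62.5 and 55.4 CPM in mutant and 24.7, 21.1 and 23.7 CPM in WT CD8 SP cells (log2 fold change 1.36 ± 0.18). Bcl11b, a factor of T cell commitment, had 762, 1064 and 1015 CPM in mutant and 403, 425 and 441 CPM in WT CD8 SP cells (log2 fold change 1.16 ± 0.21). Cbfb, the partner that all Runx proteins need for firm DNA binding, was lower, with 74.1, 87.5 and 88.2 CPM in mutant and 153, 183 and 206 CPM in WT CD8 SP cells (log2 fold change -1.12 ± 0.14, edgeR adjusted p = 6.24e-05). So, in the fit used throughout, the gene of the shared partner fell while Runx1 rose and Runx3 did not pass the test. Runx3 passed as higher in at least 1 alternative fit.

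Id2 and Id3, inhibitors of E proteins, were both lower. Id3 had 33.1, 78.9 and 79.7 CPM in mutant and 297, 682 and 690.1 CPM in WT CD8 SP cells (log2 fold change -3.12 ± 0.44), and Id2 had 89.9, 62.8 and 64.9 CPM against 156, 199 and 197 CPM (log2 fold change -1.34 ± 0.17). For Id3, replicate 1 was the lowest library of each group. Klf2, a factor that directs mature thymocytes out of the thymus, had 227, 242 and 228 CPM in mutant and 574, 634 and 563 CPM in WT CD8 SP cells (log2 fold change -1.34 ± 0.12, edgeR adjusted p = 1.82e-06). Ikzf2, the factor Helios, had 2.40, 0.994 and 1.07 CPM in mutant and 23.6, 35.5 and 30.4 CPM in WT CD8 SP cells (log2 fold change -4.33 ± 0.46, and -4.97 without the libraries numbered 1). Neither Klf2 nor Ikzf2 overlapped between the groups.

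Genes that the T cell receptor (TCR) induces were lower where they were called: of 18 tested, 11 were lower and 0 higher by edgeR, with a median log2 fold change of -1.10. At an unadjusted p under 0.05, and also by DESeq2, 11 were lower and 1 was higher. Cd5, a surface protein whose level follows TCR signal strength, had 124, 103 and 111 CPM in mutant and 312, 359 and 366 CPM in WT CD8 SP cells. It was lower in every mutant library (log2 fold change -1.61 ± 0.13, edgeR adjusted p = 8.94e-07), and WT CD4 SP cells had 562, 701 and 706 CPM. Egr1, Egr2 and Egr3, early response factors, fell by 1.16, 1.79 and 2.85 on the log2 scale. Egr3, the most reduced of them, had 1.41, 1.88 and 1.61 CPM in mutant and 11.5, 12.2 and 11.8 CPM in WT CD8 SP cells. Tnfrsf9, the costimulatory receptor 4-1BB, had 4.74, 5.79 and 7.94 CPM in mutant and 24.0, 34.1 and 34.1 CPM in WT CD8 SP cells (log2 fold change -2.32 ± 0.26). Myc, a transcription factor of cell growth, Irf4, a factor induced with TCR strength, and Cd6, a relative of Cd5, fell by 1.55, 3.24 and 0.83 on the log2 scale. Cd69, the activation marker that the gate held low, had 103, 69.2 and 69.4 CPM in mutant and 202, 147 and 146 CPM in WT CD8 SP cells.

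For the TCR complex and its proximal signalling proteins, 5 of 23 members were higher and 2 lower. Leaving out 1 library lowered the count of higher members to 2, 3 and 2 without mutant replicates 1, 2 and 3, and to 3, 2 and 1 without WT CD8 SP replicates 1, 2 and 3. Ptpn6, the phosphatase SHP-1 that dampens TCR signals, had 421, 408 and 453 CPM in mutant and 849.9, 1059 and 1097 CPM in WT CD8 SP cells (log2 fold change -1.23 ± 0.12). The groups did not overlap for it. Sh2d2a, an adaptor, was lower, with a log2 fold change of -0.51 ± 0.12.

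Cytokine receptors and their SOCS inhibitors had 8 members higher and 6 lower of 28 tested. Without mutant replicates 1, 2 and 3 the higher members numbered 5, 8 and 6, and without WT CD8 SP replicates 1, 2 and 3 they numbered 7, 6 and 6. Socs1, an inhibitor of cytokine signalling, had 194, 219.6 and 220.4 CPM in mutant and 75.5, 73.1 and 71.7 CPM in WT CD8 SP cells (log2 fold change 1.52 ± 0.11, edgeR adjusted p = 3.66e-07). Socs3, which acts on the IL-6 receptor family, had 182, 288 and 298 CPM in mutant and 65.3, 41.5 and 45.0 CPM in WT CD8 SP cells (log2 fold change 2.34 ± 0.22). Both inhibitors were higher with no overlap. Il7r, the IL-7 receptor that keeps naive T cells alive, rose by 1.08, whereas Il4ra, the IL-4 receptor, and Il6st, the shared gp130 chain, fell by 1.03 and 0.98 on the log2 scale.

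Ligands and receptors of the TNF family had 8 members higher and 4 lower of 21 tested of 23 listed. The lower members numbered 1, 1 and 3 without mutant replicates 1, 2 and 3 and 3, 2 and 1 without WT CD8 SP replicates 1, 2 and 3, and the higher members fell to 5 without WT CD8 SP replicate 2. Besides Cd40lg, Tnfrsf4 and Tnfrsf9 above, Tnfrsf25, the receptor DR3, had 94.1, 63.1 and 53.8 CPM in mutant and 18.8, 11.3 and 13.8 CPM in WT CD8 SP cells (log2 fold change 2.27 ± 0.27). Lta, lymphotoxin alpha, was higher by 1.24 ± 0.17. The CD28 family and coinhibitory receptors had 3 members higher and 5 lower of 15 tested of 16 listed. Cd200r1, an inhibitory receptor, had 16.1, 20.4 and 16.6 CPM in mutant and 1.73, 2.84 and 2.24 CPM in WT CD8 SP cells (log2 fold change 2.96 ± 0.24), while Cd200, its ligand, fell by 1.51 and Pdcd1, the receptor PD-1, by 1.91. Ctla4, a coinhibitory receptor, rose by 1.93, and by 1.22 without mutant replicate 1, the mutant library that held the most. Cd160, a receptor of NK and CD8 cells, had 8.02, 14.3 and 19.7 CPM in mutant and 70.5, 95.7 and 99.6 CPM in WT CD8 SP cells (log2 fold change -2.66 ± 0.32).

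Chemokine and lipid-mediator receptors were called in 4 of 18 members tested of 20 listed (22.2%, near the 18.4% of all genes tested), 3 higher and 1 lower. Ccr4, a higher one, had 4.96, 13.1 and 10.5 CPM in mutant and 2.37, 5.04 and 4.36 CPM in WT CD8 SP cells. Its groups overlapped, and it lost its call without mutant replicate 2 or 3 or WT CD8 SP replicate 1 or 3. Cxcr6, the receptor that holds resident T cells near CXCL16, was the lower one, with 6.18, 16.5 and 18.3 CPM in mutant and 194, 300.2 and 322 CPM in WT CD8 SP cells (log2 fold change -4.31 ± 0.41, edgeR adjusted p = 4.11e-06). Mutant libraries lay within a range that WT CD4 SP libraries also covered, at 11.2, 18.2 and 29.2 CPM, except that mutant replicate 1 was lower. Ptgir, the prostacyclin receptor, had 20.4, 18.1 and 13.3 CPM in mutant and 0.745, 1.71 and 0.863 CPM in WT CD8 SP cells (log2 fold change 3.96 ± 0.32). Ccr9, the thymus and gut homing receptor, had 545, 731 and 617 CPM in mutant and 358, 326 and 312 CPM in WT CD8 SP cells (log2 fold change 0.93 ± 0.19), far above the 24.1, 20.6 and 18.7 CPM of WT CD4 SP cells. In the CD103 and TGF-beta pathway, 2 of 14 members were higher and 3 lower: Tgfbr3, a coreceptor, rose by 1.45, and Itgb7, the partner chain of CD103, fell by 0.52 beside Itgae. Its higher members numbered 1 without mutant replicate 2 or 3 or WT CD8 SP replicate 2 or 3. Its lower members numbered 2 with any 1 of these libraries left out, where Cdh1 lost its call each time.

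Genes of thymocyte maturation and egress had 4 members higher and 8 lower of 18 tested, with a median log2 fold change of -0.41; the lower ones numbered 5 without mutant replicate 2. Slfn1 and Slfn2, schlafen genes that rise as thymocytes mature, were higher. Slfn1 had 529.7, 429.9 and 435 CPM in mutant and 193, 181 and 168 CPM in WT CD8 SP cells (log2 fold change 1.36 ± 0.12), below the 574, 555 and 686 CPM of WT CD4 SP cells. Slfn2 was higher by 1.18 ± 0.12. Ms4a4b, a membrane protein of mature T cells, had 879, 770.1 and 833 CPM in mutant and 1673, 1921 and 1989 CPM in WT CD8 SP cells (log2 fold change -1.17 ± 0.15). H2-Q6, a nonclassical MHC class I gene with close copies, fell by 2.01 on the log2 scale, and its split of reads with them is uncertain.

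Markers of immature double-positive thymocytes, a cell type that the gate should leave out, had 3 of 10 members higher and 1 lower; the higher ones numbered 1, 2 and 2 without mutant replicates 1, 2 and 3 and 3, 1 and 1 without WT CD8 SP replicates 1, 2 and 3. The higher ones were Dntt, described above, Cd1d1 and Arpp21. Cd1d1 had 166, 107 and 124 CPM in mutant and 92.9, 68.1 and 66.4 CPM in WT CD8 SP cells. Arpp21 had 12.0, 9.62 and 9.52 CPM in mutant and 3.99, 1.71 and 2.21 CPM in WT CD8 SP cells. The list summed to 533, 529 and 567 CPM in mutant and to 369, 357 and 367 CPM in WT CD8 SP libraries, of which Themis, a gene that mature T cells also use, gave 211 to 235 CPM in mutant and 239 to 259 CPM in WT CD8 SP libraries. Rag1, Rag2 and Ptcra, defining genes of that stage, were at most at 2.20 CPM in every one of the 6 libraries and were not called.

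Regulatory T cell genes had 3 members higher and 6 lower of 14 tested of 15 listed, and Foxp3, their defining factor, stood at 1.42 to 3.85 CPM in the 6 libraries and was not called. Il2ra, the IL-2 receptor alpha chain, had 4.15, 6.01 and 5.60 CPM in mutant and 0.399, 1.63 and 1.73 CPM in WT CD8 SP cells (log2 fold change 2.06 ± 0.43). Nt5e, the ectoenzyme CD73, was lower, with a log2 fold change of -2.03 ± 0.36. Lrrc32, which holds latent TGF-beta on the surface, had 0 counts in the 3 mutant libraries and 138 in the WT CD8 SP libraries, where it stood at 0.0266, 1.25 and 2.03 CPM. Replicates 2 and 3 of WT CD8 SP held nearly all of these counts, and the fitted log2 fold change of -8.63, which depends on the prior count and is no bound, was -7.84 without WT CD8 SP replicate 3. T helper effector genes had 3 members higher and 2 lower of 10 tested of 14 listed, the lower ones 0 without WT CD8 SP replicate 2 and 1 without mutant replicate 1 or 3 or WT CD8 SP replicate 3. Rora, a nuclear receptor of effector lineages, had 65.1, 61.9 and 57.6 CPM in mutant and 5.88, 10.7 and 13.7 CPM in WT CD8 SP cells (log2 fold change 2.61 ± 0.25). Prdm1, the repressor Blimp-1, rose by 3.80, and by 4.65 without WT CD8 SP replicate 3.

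NK receptors and adaptors were tested for 12 of 27 genes, the rest having too few counts; 3 were lower and 0 higher by edgeR. At an unadjusted p under 0.05 the numbers were 7 lower and 0 higher, and by DESeq2 4 lower and 0 higher. Without the libraries numbered 1, 6 were lower, and in a fit of the 6 compared libraries alone 7 were. Beside Klrd1 and Cd160, Hcst, the adaptor DAP10, was the third (log2 fold change -0.58 ± 0.11). Genes of NKT and innate-like T cells had 2 members higher and 4 lower of 13. Slamf1 and Sh2d1a, a signalling receptor and its adaptor, rose by 1.07 and 0.97, while Zbtb16, the defining factor of these cells, was at most at 1.71 CPM in the 6 libraries and was not called.

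Interferon-stimulated genes were called in 7 of 29 members (24.1%), 5 higher and 2 lower, with a median log2 fold change of 0.01; the lower ones numbered 4 without WT CD8 SP replicate 1 and 1 without mutant replicate 2 or WT CD8 SP replicate 2. Ifi44 had 21.6, 17.7 and 13.6 CPM in mutant and 1.54, 3.61 and 3.96 CPM in WT CD8 SP cells (log2 fold change 2.53 ± 0.33), and the antiviral genes Ifit1 and Ifit2 rose by 1.03 and 0.96. Oas3, a sensor of double-stranded RNA, fell by 1.28. Guanylate-binding proteins had 3 members higher and 1 lower of 11, the lower one without a call when mutant replicate 2 or 3 or WT CD8 SP replicate 2 or 3 was left out. Gbp8, a higher one with a log2 fold change of 0.49, lost its call without mutant replicate 1 or 3 or any WT CD8 SP replicate. Gbp2b, a member of this interferon-induced GTPase family, had 52.6, 58.2 and 68.2 CPM in mutant cells and 0.0266, 0 and 0 CPM in WT CD8 SP cells. That is 8093 counts against 1, a 7180-fold ratio (95% interval from counting error 1288 to 283640). The 3 WT CD4 SP libraries had 0 CPM of Gbp2b, and its family members are close copies. Gbp11 rose by 2.49.

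MHC class I and antigen processing genes had 2 members higher and 3 lower of 20. The higher ones numbered 0 without each mutant replicate and without WT CD8 SP replicate 2 or 3, and 1 without WT CD8 SP replicate 1; the lower ones numbered 1 without mutant replicate 1. The Ly6 family had 1 member higher and 2 lower of 7 tested of 9 listed, Ly6c1 and Ly6c2 among them; the lower ones numbered 1 without mutant replicate 3. Sialyltransferases and sialidases had 6 members higher and 5 lower of 16 tested of 22 listed. The lower ones numbered 4, 4 and 3 without mutant replicates 1, 2 and 3 and 4, 3 and 3 without WT CD8 SP replicates 1, 2 and 3. Next to St8sia6, St3gal2, which adds sialic acid to galactose, had 18.6, 33.1 and 29.0 CPM in mutant and 0.452, 1.71 and 1.24 CPM in WT CD8 SP cells (log2 fold change 4.56 ± 0.38). St8sia1 and the sialidase Neu1 rose by 1.07 and 0.77, and St3gal1 fell by 0.71 on the log2 scale.

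Tubulins had 2 members higher and 5 lower of 15 tested of 16 listed. The lower ones numbered 2, 3 and 3 without mutant replicates 1, 2 and 3 and 5, 2 and 2 without WT CD8 SP replicates 1, 2 and 3, and the higher ones numbered 1 without each library but mutant replicate 1. Tubb2b, a higher one, lost its call whichever of these libraries was left out, so another member was called without mutant replicate 1. Against the rise of Tubb2a, Tuba1b, the main alpha-tubulin of dividing cells, had 112, 139 and 145 CPM in mutant and 239, 368 and 376 CPM in WT CD8 SP cells (log2 fold change -1.31 ± 0.16). Tubb3 fell by 2.26 on the log2 scale. The BCL2 family, which sets cell survival, had 1 member higher and 3 lower of 15 tested of 17 listed. The higher one lost its call without mutant replicate 2 or 3 or WT CD8 SP replicate 2 or 3, and the lower ones numbered 2, 2 and 1 without mutant replicates 1, 2 and 3 and 2, 2 and 3 without WT CD8 SP replicates 1, 2 and 3. Genes of dissociation stress had 2 members higher and 3 lower of 15 tested of 17 listed, the higher ones 1 without each library but mutant replicate 2. Dnajb1, a higher one, lost its call whichever of these libraries was left out, so another member was called without mutant replicate 2. Btg2, an antiproliferative early gene, had 616, 557 and 563 CPM in mutant and 189, 191 and 203 CPM in WT CD8 SP cells (log2 fold change 1.57 ± 0.13), and Zfp36, which destabilises mRNA, and Hsp90aa1, a chaperone, each fell by 0.63 on the log2 scale.

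Receptor segments were counted by gene, and reads may be split between near copies. Of 25 TCR beta V segments tested of 35 listed, 12 were higher and 3 lower, and the list summed to 962, 1050 and 1081 CPM in mutant and 642, 786 and 750 CPM in WT CD8 SP libraries. Every mutant library lay above every WT CD8 SP library in that sum. Trbc1, a beta constant gene, had 999, 1029 and 1089 CPM in mutant and 557, 660 and 682 CPM in WT CD8 SP cells, also without overlap. Of 76 TCR alpha V segments tested of 130 listed, 5 were higher and 10 lower. The higher ones numbered 2, 2 and 2 without mutant replicates 1, 2 and 3 and 2, 3 and 3 without WT CD8 SP replicates 1, 2 and 3, and the lower ones numbered 6, 6 and 8 and 9, 4 and 5 in the same order. Of 56 alpha J segments tested of 60 listed, 0 were called by edgeR, with 2 higher and 0 lower at an unadjusted p under 0.05 and 1 higher and 0 lower by DESeq2.

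Of the markers of other cell types, Ms4a1 and Pax5 of B cells, S100a9, Mpo and Siglech of myeloid cells and Foxn1 of thymic epithelium were at 0 in all 6 libraries. B cell genes were tested for 4 of 10, and 2 were lower: Ighd fell to 0.269, 0.0432 and 0.647 CPM in mutant cells, against 33.4, 50.5 and 52.1 CPM in WT CD8 SP cells (log2 fold change -7.14 ± 0.84, and -8.16 without mutant replicate 3). Cd79b, a chain of the B cell receptor, had 6.83, 5.47 and 6.20 CPM in mutant and 41.2, 39.1 and 42.8 CPM in WT CD8 SP cells (log2 fold change -2.73 ± 0.41). Cd79a, the partner chain of Cd79b, stood at 1.07 to 3.86 CPM in the 6 libraries and was not called. The part of B cell RNA in these differences was not tested. Ighm, at 713 to 1092 CPM in the 6 libraries, was not called. Summed levels were 724 to 993 CPM in mutant and 843 to 1190 CPM in WT CD8 SP libraries for the B cell list, nearly all of it Ighm.

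Of 10 myeloid genes tested of 16 listed, 0 were called by edgeR, with 0 higher and 2 lower at an unadjusted p under 0.05 and 1 higher and 0 lower by DESeq2. The list summed to 60.2 to 81.2 CPM in mutant and 82.9 to 110.6 CPM in WT CD8 SP libraries, most of it Cst3, a protease inhibitor of many cell types. Lyz2, the macrophage lysozyme, stood at 0.359, 4.43 and 2.30 CPM in mutant and 0, 0.0251 and 0.373 CPM in WT CD8 SP cells. Erythroid genes, 3 tested of 6 listed, had 0 called by edgeR, with 2 higher and 0 lower at an unadjusted p under 0.05 and 1 higher and 0 lower by DESeq2. They summed to at most 1.43 CPM in any of the 6 libraries. Stromal and epithelial genes had 2 members higher and 1 lower of 5 tested of 10 listed, the higher ones 1 without mutant replicate 1 or 2 or WT CD8 SP replicate 1 or 2. Epcam, an adhesion molecule also made by thymocytes, had 6.74, 8.77 and 9.21 CPM in mutant and 2.77, 3.19 and 4.76 CPM in WT CD8 SP cells (log2 fold change 1.21 ± 0.27), while the list summed to 226 to 245 CPM in mutant and 162 to 183 CPM in WT CD8 SP libraries, nearly all of it Pecam1. Cdh5, an endothelial cadherin, had 1 count in the mutant libraries and 131 in the WT CD8 SP libraries, 148-fold more in WT CD8 SP cells (95% interval from counting error 26.0 to 5876). MHC class II presentation genes had 1 lower of 7, H2-DMa (log2 fold change -0.81 ± 0.14), and 2 lower without mutant replicate 1; H2-Aa, H2-Ab1 and H2-Eb1 were at 1.71 CPM or less. Gamma-delta T cell genes had 1 of 3 tested called higher, the kinase gene Blk, which lost its call without each of the 6 libraries but WT CD8 SP replicate 3; 4 of the 8 listed symbols matched no gene in the table. Trdc, the delta constant gene, stood at 10.7, 8.28 and 10.1 CPM in mutant and 6.44, 7.33 and 7.20 CPM in WT CD8 SP cells and was not called.

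**Figure D5:**
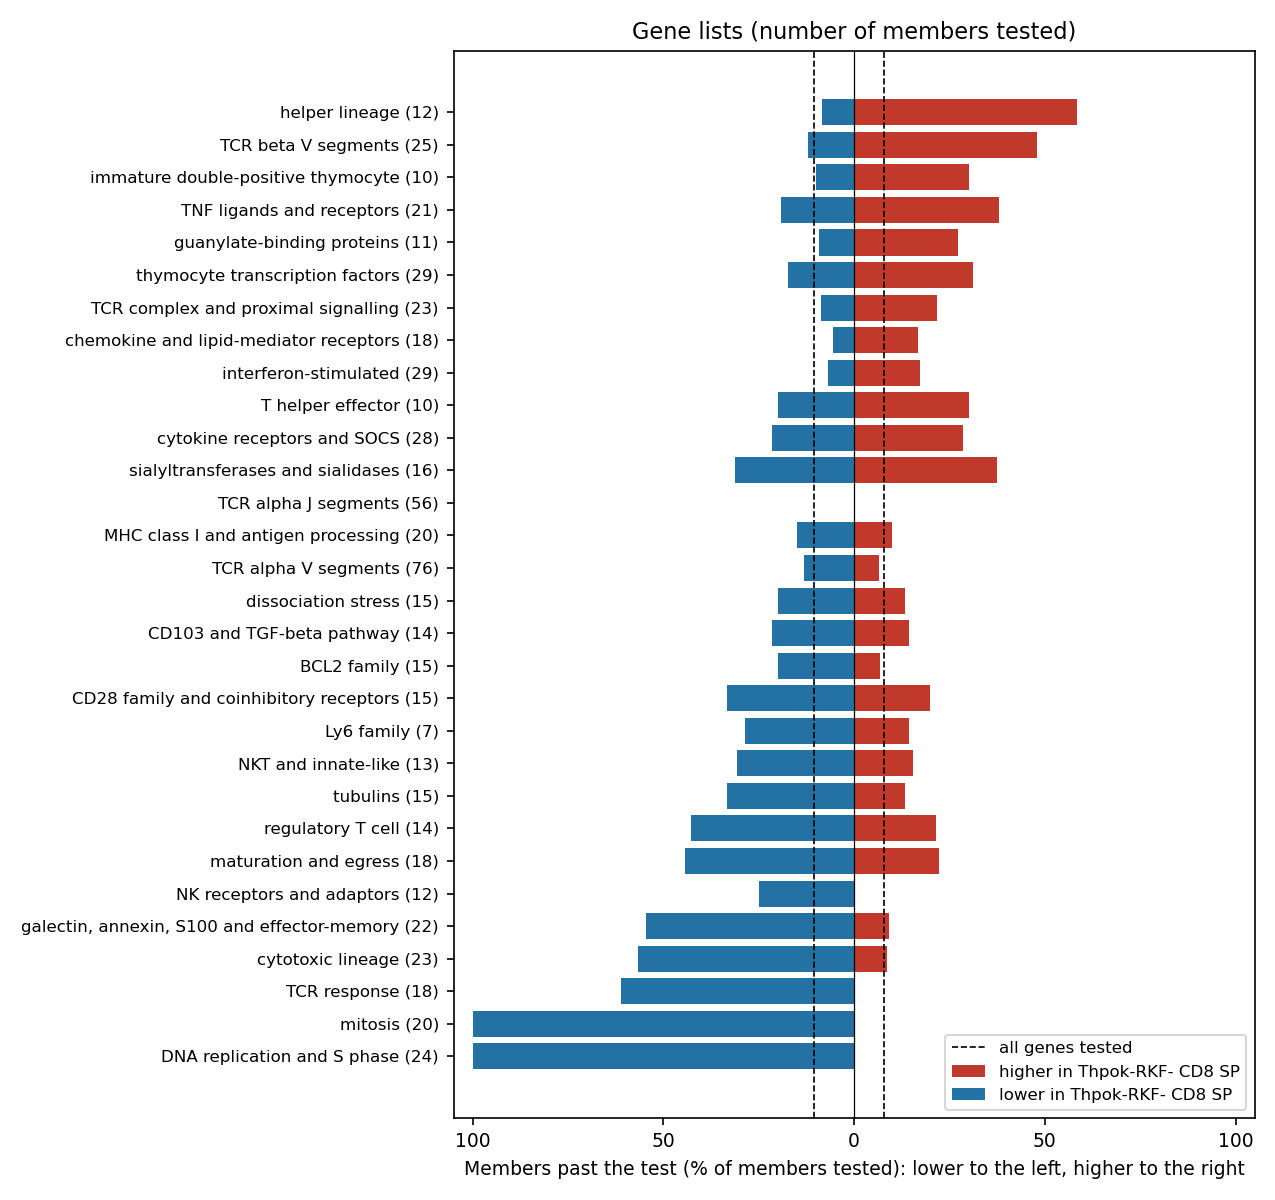
Bars give the percent of tested members of each gene list that were called higher (red, to the right) or lower (blue, to the left) in Thpok-RKF- CD8 SP cells, with the number tested in parentheses and lists of other cell types left out; dashed lines mark the 7.78% higher and 10.6% lower over all 16550 genes. The replication and mitosis lists reach 100% lower and the helper list has the longest red bar, while the alpha J segments have none.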

How the data were processed

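RNA-seq was read from 15 libraries in 5 groups (3 each), made per the labels' protocols from column-purified RNA with a low-input cDNA kit and sequenced as paired reads. Reads were demultiplexed with bcl2fastq 2.17 and handled with Trimmomatic, STAR and HTSeq on the mouse build mm39, per the submitters' processing notes; the annotation is not given in the sources used here. The authors deposited whole-number read counts per gene, and these counts were used as deposited. The normalised table that the authors deposited was not used, and 3 columns of per-sample values that matched no sample were left out. The 5 summary lines per library (17.3 to 19.6% of all entries in mutant and 16.0 to 18.4% in WT CD8 SP libraries) stayed out of totals and tests.

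All 15 libraries were fitted together, so the 5 groups shared 1 estimate of spread, with edgeR 4.0.16 in R 4.3.3: filterByExpr (minimum count 10, minimum total 15), TMM scaling and the quasi-likelihood F test, with Benjamini-Hochberg adjustment at 0.05. The SE of a log2 fold change is its size over the root of F. The steps were tested on simulated data. Of 98 genes given a log2 fold change of 1 in either direction, 37 were recovered, and of 97 given 2, 68 were. There were 8 false calls among 15818 unchanged genes. Many real changes can thus be missed, and a gene not called is not shown to be unchanged. Ratios of sparse counts have exact 95% intervals, which like the floor of 3 counts cover counting error only. Replicate counts differed by more than sampling noise. Alternatives were other scalings, no filter, DESeq2 1.42.0, a fit of the 6 libraries, a replicate block, libraries numbered 1 left out or given a term, each library left out, and, chosen after seeing the data, the share of reads outside genes as a covariate.

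Genes were named by a rule: the 15 largest rises and 15 largest falls among called genes whose log2 CPM averaged 3 or more and whose groups did not overlap (receptor segments, predicted models and sex-linked genes left out), 9 genes of the lineage question and markers, and up to 5 members of each list by smallest p, with markers of other cell types. A further 19 were named after their values were seen: Nkg7, Prf1, Plac8, Ctsw, Ahnak, Jun, Runx1, Bcl11b, Id3, Il7r, Myc, Irf4, Pcna, Il4ra, Xcl1, Cd6, Fasl, Anxa5 and Icos. The comparison, its marker genes and the gene lists were chosen with earlier results of these data known, so no list's direction is independent evidence. Some results are not reported here.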

Additional observations from a re-analysis of the deposited data

How the results depend on the processing

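The number of called genes was 3045, and lay between 2970 and 3857 under the other scalings, filter, tools, fits and terms tried. At a 2-fold change or more it was 1441. Leaving out 1 library gave 2037 to 2700 called genes, 837 to 1163 higher, 1195 to 1537 lower and 1180 to 1402 at 2-fold or more. The 837 came without WT CD8 SP replicate 2, the 1 setting of these that moved a count of calls by over 1.5 times; the cause was not tested. The share of calls that were higher was 42.3%, and 49.6% with library totals as the only scaling. Same-numbered libraries did not pair clearly (correlations of their deviations 0.146, 0.0142 and 0.0961), although all were positive, a hint from the data and not from the design. With a replicate block, 3610 genes were called, 1544 higher and 2066 lower. Of 160 named genes that were called, 132 kept the call with each library left out and 131 under every alternative, and 0 reversed in direction. Of 30 named genes not called, 14 passed under at least 1 alternative. All 20 mitosis genes stayed lower in every alternative, and 23 or 24 of the 24 replication genes did. Depth limits genes near 1 count per library, where 1 library can carry a call. Leaving out all libraries numbered 1 moved some list counts by over 1.5 times. More members were then lower in the TCR complex (4, against 2), NK receptor (6, against 3), chemokine receptor (3, against 1), interferon (5, against 2), MHC class I (5, against 3), stress (5, against 3), helper (2, against 1) and guanylate-binding protein (2, against 1) lists. More were higher among tubulins (4, against 2) and the BCL2 family (2, against 1). Fewer were called among sialyltransferases (3 lower, against 5), alpha V segments (2 higher and 6 lower, against 5 and 10), cytotoxic genes (1 higher, against 2), stroma (1 higher, against 2) and gamma-delta T cell genes (0 higher, against 1).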
